A study of Schizosaccharomyces pombe with 6 samples.

Results

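The genes described here handle copper and zinc in the fission yeast Schizosaccharomyces pombe. They are the 9 genes ctr4, ctr5, ctr6, cuf1, zrt1, zhf1, loz1, zym1 and fet4, taken by their common names out of the 6986 genes in the count table. Values measured in this comparison were not part of the rule, but the members were named with earlier results of these data known. Poly(A)+ RNA was sequenced in 3 libraries of an h+ strain carrying rad24∆::NatMX (lab strain AGP141), in which a drug marker replaces the 14-3-3 gene rad24, and in 3 libraries of the wild type h+ strain (lab strain AGP73). Cultures of both were in vegetative growth, at log phase in YES, a rich medium, at 30 °C. Each genotype is represented by a single lab strain, and the labels do not say whether its 3 libraries came from separate cultures. The p-values therefore measure only the spread between these libraries.

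Copper and zinc are needed as enzyme cofactors and are toxic in excess, so cells adjust their uptake, storage and binding. In S. pombe, Ctr4 and Ctr5 form the copper importer of the plasma membrane, Ctr6 releases copper from the vacuole, and the transcription factor Cuf1 switches these genes on when copper is scarce. Zinc enters through Zrt1 and is moved into the endoplasmic reticulum by Zhf1, while the zinc finger factor Loz1 represses zinc uptake genes such as zrt1 when zinc is plentiful. Zym1 is a metallothionein, a small cysteine-rich protein that binds metal ions, and Fet4 is a predicted iron and zinc transporter of the plasma membrane.

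Library totals ran from 19396868 to 21730112 counts in the rad24 deletion and from 11539278 to 15282140 in wild type, so the deletion libraries were all deeper. Levels are given in CPM, the count of a gene scaled to a common library total with TMM factors, which correct for differences in composition. Pearson correlations of log2 CPM were 0.996 to 0.998 within a genotype and 0.938 to 0.945 between genotypes. The deleted gene rad24 was found at 1.26 ± 0.609 CPM in the deletion and 1598 ± 109 CPM in wild type (SD, n = 3 each), as the labels imply. Among markers of mating type, the P-cell pheromone gene map2 was at 450.2 CPM in the deletion and 5.14 CPM in wild type. The M-factor receptor gene map3, also a marker of P cells, was at 242.9 CPM in the deletion and 35.6 CPM in wild type. The P-factor receptor gene mam2, a marker of M cells and so of the other mating type, was at 4.31 CPM in the deletion and 35.5 CPM in wild type, and the M-factor gene mfm1 was at 1.75 and 0.312 CPM in the deletion and wild type. In wild type map3 and mam2 were at similar levels, so these markers do not plainly bear out the h+ label there. The part of mating type expression in the metal gene results was not tested. In RNA from whole cultures, fewer cells expressing a gene and less RNA per cell cannot be told apart.

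All 9 genes passed the filter on low counts and all 9 differed between the genotypes by edgeR's quasi-likelihood test (adjusted p below 0.05 over 6084 genes). That test called 78.3% of all tested genes, so the number of members called is close to what the whole table would give, and the direction and size of each change carry the description. The metallothionein gene zym1 rose, and so, by less, did the vacuolar copper gene ctr6 and the zinc regulator gene loz1. The genes of metal import at the plasma membrane (ctr4, ctr5, zrt1 and fet4) fell, as did cuf1 and zhf1. The 3 that rose compare with 40.9% of all tested genes called higher, and the 6 that fell with 37.4% called lower. The median log2 fold change of the 9 was -0.38, against 0.02 for all tested genes. At least 2-fold changes were found in 2 of the 9, against 12.8% of all tested genes: zym1 among the 7.23% at least 2-fold higher, and ctr4 among the 5.52% at least 2-fold lower. The deletion and wild type libraries did not overlap for any of the 9, which held for 80% of all tested genes.

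**Figure D1:**
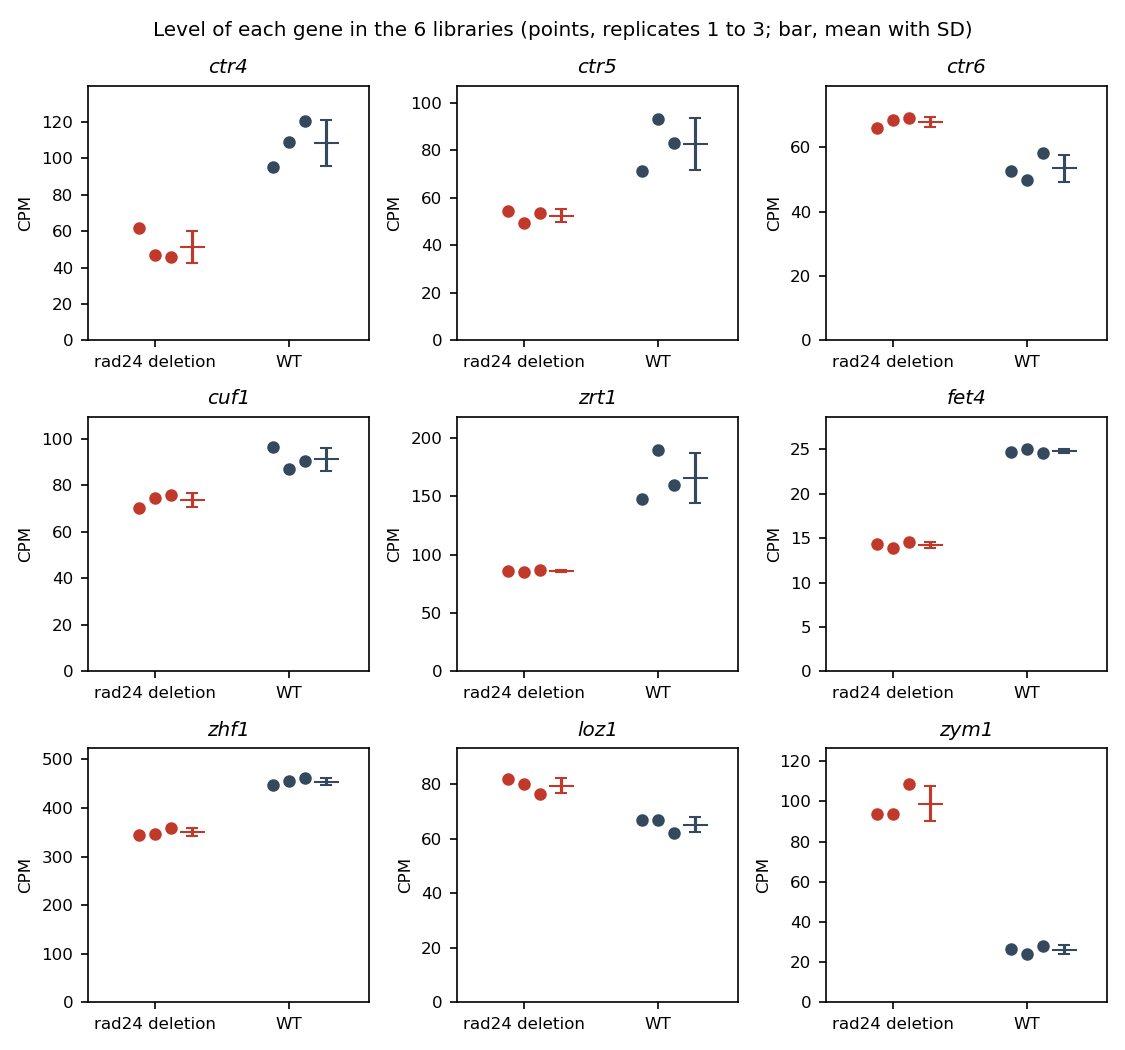
Level of each of the 9 genes in CPM (vertical axis, from 0) in each library of the rad24 deletion (left, red) and wild type (right, dark blue), with the mean and SD over 3 libraries drawn beside the points. In every panel the points of the 2 genotypes are apart, with ctr6, loz1 and zym1 higher in the deletion and the other 6 genes lower.

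The copper importer genes were both lower in the deletion. The gene of the importer subunit Ctr4 (ctr4, SPCC1393.10) was at 61.5, 46.7 and 45.8 CPM in deletion replicates 1, 2 and 3, and at 95.4, 109 and 120.4 CPM in the wild type replicates. The lowest wild type library lay well above the highest deletion library, and replicate 1 stood above the other two within the deletion. The log2 fold change was -1.07 with an SE of 0.10 (edgeR adjusted p = 3.21e-07), which leaves 47.6% of the wild type level. The gene of the partner subunit Ctr5 (ctr5, SPAC1142.05) was at 54.6, 49.5 and 53.5 CPM in the deletion, and at 71.3, 93.2 and 83.0 CPM in wild type. Here the spread was in wild type, where replicate 1 was the lowest, and the groups did not overlap. Its log2 fold change was -0.64 with an SE of 0.08 (edgeR adjusted p = 3.06e-06), or 64.1% of the wild type level.

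The gene ctr6 moved opposite to cuf1, the gene of its regulator, whereas ctr4 and ctr5 fell as cuf1 did. The vacuolar copper exporter gene ctr6 (SPBC23G7.16) was at 65.9, 68.5 and 69.0 CPM in the deletion, and at 52.4, 49.9 and 58.1 CPM in wild type. All deletion libraries were above all wild type libraries, with a gap smaller than for ctr4. Its log2 fold change was 0.34 with an SE of 0.05 (edgeR adjusted p = 4.58e-05). In the authors' deposited table the same gene had a log2 fold change of 0.34 with an SE of 0.16 and an adjusted p of 0.0533, so of the 9 genes it is the member not called there. The gene of the copper-sensing factor Cuf1 (cuf1, SPAC31A2.11c) was at 70.3, 74.6 and 75.9 CPM in the deletion, and at 96.4, 86.9 and 90.3 CPM in wild type. The groups did not overlap, and the log2 fold change was -0.31 with an SE of 0.05 (edgeR adjusted p = 2.32e-05). With scaling by library size only, cuf1 was still called at -0.15 (adjusted p = 0.0155), where the median of all genes was 0.18.

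Of the zinc genes, both import genes fell. The plasma membrane importer gene zrt1 (SPBC16D10.06) was at 86.3, 85.4 and 87.2 CPM in the deletion, and at 147.9, 189 and 159.8 CPM in wild type. The deletion libraries were nearly level, while wild type replicate 2 stood above the other wild type libraries. The log2 fold change was -0.93 with an SE of 0.07 (edgeR adjusted p = 1.67e-08), or 52.4% of the wild type level. The predicted iron and zinc transporter gene fet4 (SPBP26C9.03c) was at 14.3, 13.9 and 14.6 CPM in the deletion, and at 24.7, 25.0 and 24.6 CPM in wild type. Both groups were tight, and the log2 fold change was -0.80 with an SE of 0.07 (edgeR adjusted p = 1.03e-07).

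The genes of zinc storage, regulation and binding did not move as one. The endoplasmic reticulum transporter gene zhf1 (SPAC23C11.14) was at 345, 346 and 359.9 CPM in the deletion, and at 447, 455 and 461 CPM in wild type. It fell by 0.38 on the log2 scale with an SE of 0.04 (edgeR adjusted p = 3.95e-07), with no overlap of the groups. The repressor gene loz1 (SPAC25B8.19c) was at 81.8, 80.2 and 76.3 CPM in the deletion, and at 66.7, 66.9 and 62.0 CPM in wild type. It rose, with a log2 fold change of 0.29 and an SE of 0.04 (edgeR adjusted p = 4.44e-05). With scaling by library size only the log2 fold changes were -0.21 for zhf1 and 0.45 for loz1, both still called. The metallothionein gene zym1 (SPAC22H10.13) was at 94.0, 93.9 and 108.8 CPM in the deletion, and at 26.6, 23.9 and 28.2 CPM in wild type. Every deletion library held more than 3 times the level of any wild type library, and the rise was 3.75-fold or 1.91 on the log2 scale, with an SE of 0.07 (edgeR adjusted p = 2.83e-11).

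**Figure D2:**
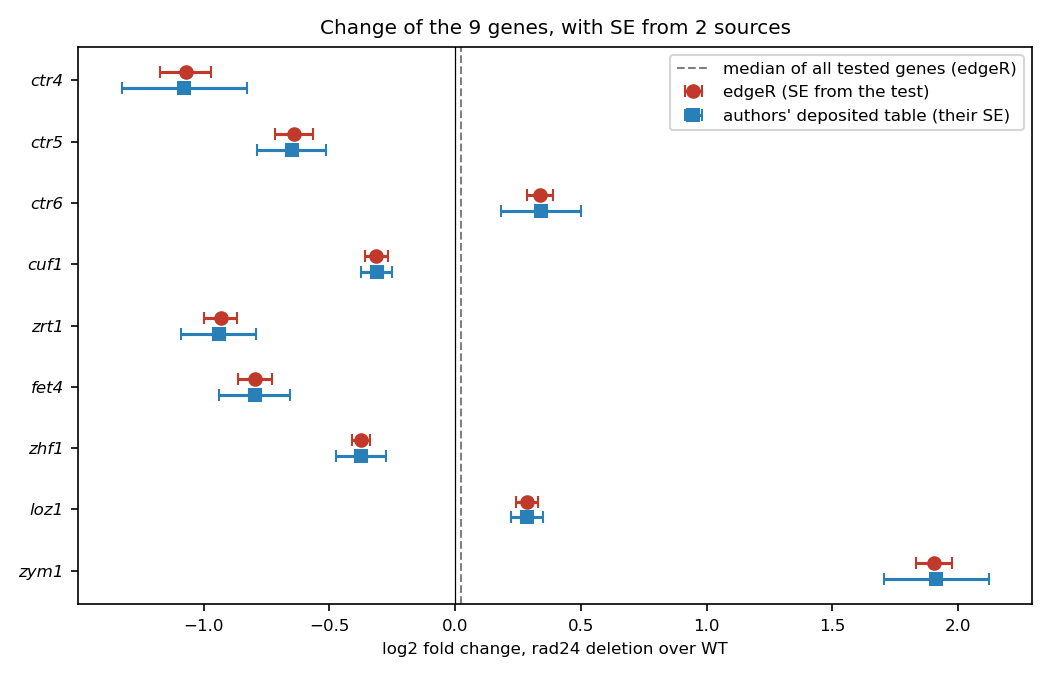
Log2 fold change (horizontal axis, rad24 deletion over wild type) of the 9 genes with its SE, from edgeR (red circles) and from the authors' deposited table (blue squares), with the median of all tested genes as a dashed line at 0.02. The estimates of both sources lie on each other, from -1.07 for ctr4 to 1.91 for zym1 by edgeR, while the SEs in the authors' deposited table are wider for all 9.

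The SEs from edgeR were smaller than those in the authors' deposited table for each of the 9 genes. For ctr4 they were 0.10 by edgeR and 0.25 in the authors' deposited table, for zrt1 0.07 and 0.15, and for zym1 0.07 and 0.21. The log2 fold changes themselves were nearly equal, such as -1.08 for ctr4 and 1.91 for zym1 in the authors' deposited table. That table called 59% of its 6689 genes with an adjusted p, and 8 of the 9 members. DESeq2 run here on the deposited counts gave SEs of 0.17 for ctr4, 0.08 for zrt1 and 0.08 for zym1. It also called ctr6, the member not called in that table (DESeq2 adjusted p = 4.96e-06). Why the SEs in that table are wider was not tested.

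How far the libraries of a genotype lay apart differed between members. The pooled SD of log2 CPM within genotypes was 0.21 for ctr4, 0.15 for ctr5, 0.13 for zrt1 and 0.12 for zym1, above the median of 0.062 over all tested genes. For fet4 and zhf1 it was 0.026 and 0.029, below that median. The SD of ctr4 was larger than that of 89.8% of the tested genes. The plasma membrane reductase gene frp1, which is no member, had a pooled SD of 0.20. Like ctr4 and ctr5, frp1 was highest in replicate 1 among the deletion libraries and lowest in replicate 1 among the wild type libraries.

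Ratios of members within a library do not depend on how libraries are scaled to each other. The log2 ratio of ctr4 to ctr5 counts was 0.17, -0.09 and -0.22 in the deletion, and 0.42, 0.23 and 0.54 in wild type. Every deletion library was below every wild type library, and the means differed by -0.44 (exact permutation test, two-sided, p = 0.1, the smallest that 3 against 3 libraries can give). For ctr4 to ctr6 the log2 ratio averaged -0.41 ± 0.27 in the deletion and 1.01 ± 0.14 in wild type (SD, n = 3 each; difference -1.43, exact permutation p = 0.1). Counts of ctr4 were thus 0.75 times those of ctr6 in the deletion and 2.02 times those of ctr6 in wild type. For zrt1 to zhf1 the log2 ratio averaged -2.02 ± 0.024 in the deletion and -1.46 ± 0.18 in wild type (difference -0.56, exact permutation p = 0.1). Adjusted over these 3 pairs each p remained 0.1, which no such design can bring below 0.05.

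**Figure D3:**
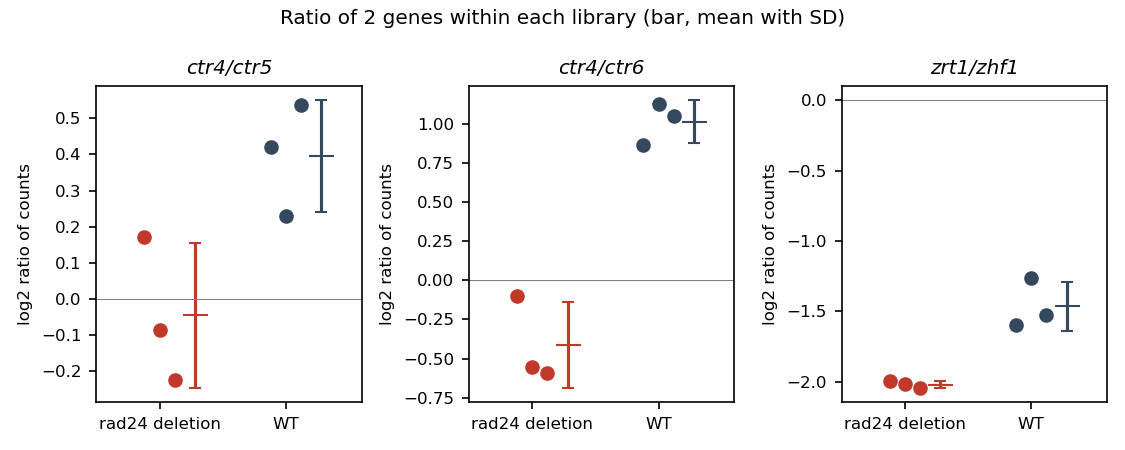
Log2 ratio of the counts of 2 genes in the same library (vertical axis) for ctr4 over ctr5, ctr4 over ctr6 and zrt1 over zhf1, in the rad24 deletion (left, red) and wild type (right, dark blue), with mean and SD beside the points. In each panel the 3 deletion libraries lie below the 3 wild type libraries, and the widest gap, -1.43 between the means, is that of ctr4 over ctr6.

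To set the levels of different genes side by side, CPM were divided by the transcript length in the ASM294v3 RefSeq annotation. Per kilobase, zhf1 had the highest level in both genotypes, with 197 ± 4.70 CPM per kb in the deletion and 255 ± 3.90 in wild type (SD, n = 3 each). In the deletion zym1 came second with 185 ± 16.0 CPM per kb, and its libraries overlapped those of zhf1. It was followed by ctr6 (85.1), ctr4 (56.8), ctr5 (45.1), zrt1 (40.1), cuf1 (34.5), loz1 (25.3) and fet4 (4.91 CPM per kb), with no other overlap between neighbours in that order. In wild type zhf1 was followed by ctr4 (120.0), zrt1 (76.9), ctr5 (70.9), ctr6 (67.1), zym1 (49.1), cuf1 (42.8), loz1 (20.7) and fet4 (8.53 CPM per kb). The neighbours zrt1 and ctr5, ctr5 and ctr6, and zym1 and cuf1 overlapped between their wild type libraries. Thus zym1 stood at rank 2 in the deletion and rank 6 in wild type, and ctr4 at rank 4 in the deletion and rank 2 in wild type.

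**Figure D4:**
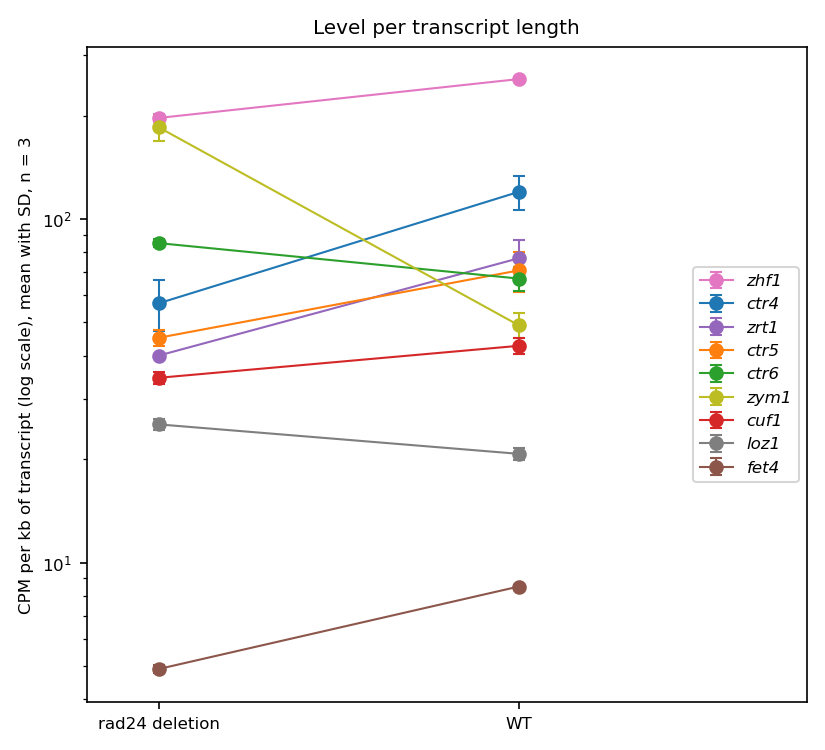
Level per transcript length of the 9 genes (CPM per kb, log scale, mean with SD over 3 libraries) in the rad24 deletion (left) and wild type (right), a line for each gene. The line of zym1 crosses those of 4 other genes, with 185 CPM per kb in the deletion and 49.1 in wild type, while zhf1 stays on top and fet4 at the bottom.

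Several members share their locus with a gene on the opposite strand in the ASM294v3 annotation, and whether HTSeq counted by strand is not given in the sources at hand. Reads of such pairs are therefore not known to have been told apart. The RNA opposite fet4 (SPNCRNA.1339) was at 4.21 ± 0.714 CPM in the deletion and 1.01 ± 0.133 CPM in wild type, a log2 fold change of 2.07 with an SE of 0.22 (edgeR adjusted p = 1.4e-06), while fet4 itself fell. The RNA opposite ctr5 (SPNCRNA.923) was at 4.74 ± 0.524 CPM in the deletion and 8.57 ± 1.07 CPM in wild type, a log2 fold change of -0.86 in the same direction as ctr5. The silencing gene sir2, which overlaps zrt1 by 114 bases, had a log2 fold change of 0.31, and SPNCRNA.1622, also opposite zrt1, had 0.16 (edgeR adjusted p = 0.387). SPAC25B8.18, which overlaps loz1 by 88 bases, rose by 0.77 on the log2 scale. The RNAs annotated opposite zhf1 (overlap up to 1395 bases), cuf1 (up to 447) and ctr6 (1068) were not among the counted genes. They were therefore not analysed here. The same holds for the RNA opposite adh1 (1598 bases), a zinc gene outside the members that is described below. No gene overlaps ctr4 or zym1 in that annotation.

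Beyond the 9 genes, 27 further names of copper, zinc and cadmium handling were looked up. They gave 25 genes, of which 24 were tested: 15 rose, 6 fell and 3 were not called, where 78.3% of all tested genes were called. Their median log2 fold change was 0.22, against 0.02 for all tested genes. Among the 15 copper genes 7 rose and 5 fell, where 40.9% of all tested genes were called higher and 37.4% lower. Genes of copper chaperones and of the Golgi copper pump moved both ways, by small amounts. The mitochondrial copper chaperone gene cox17 rose, with a log2 fold change of 0.26 (edgeR adjusted p = 0.00636), and 4 others fell. The copper chaperone gene atx1 had a log2 fold change of -0.40, that of the Golgi copper pump gene ccc2 was -0.21, that of ccs1, which loads copper into superoxide dismutase, was -0.24, and that of sco1, a predicted mitochondrial copper chaperone gene, was -0.26 (edgeR adjusted p 6.23e-07 to 0.000224). With scaling by library size only, ccc2 (-0.04, adjusted p = 0.368) and ccs1 (-0.08, adjusted p = 0.174) were no longer called.

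Other copper genes rose, most of all an amine oxidase-like gene and a multicopper oxidase gene. The copper amine oxidase-like gene cao2 was at 81.7 ± 8.05 CPM in the deletion and 9.0 ± 0.929 CPM in wild type (SD, n = 3 each). The difference was 3.18 on the log2 scale, with an SE of 0.10 (edgeR adjusted p = 2.85e-12). The multicopper oxidase gene fio1, which works in iron uptake, was at 28.0 ± 2.55 CPM in the deletion and 4.83 ± 0.630 CPM in wild type (log2 fold change 2.54). The superoxide dismutase gene sod1 (0.23) and the cytochrome c oxidase assembly genes cox19 (0.54) and cox1101 (0.28) rose by smaller amounts. The call of cox1101 was lost with RLE factors, DESeq2 and limma-voom, and without wild type replicate 1 or 2 or deletion replicate 2 or 3 (adjusted p 0.0546 to 0.149). Its related copy cox1102, which may share reads with it, was not called (0.05). Nor was the amine oxidase gene cao1 (-0.05), whose sign turned with library size only (0.11, adjusted p = 0.00796). The reductase gene frp1 was not called either, with a log2 fold change of 0.22 (edgeR adjusted p = 0.0965), and it was called without wild type replicate 2 (0.30, adjusted p = 0.0372), with upper quartile factors (0.31, adjusted p = 0.0191) and with library size only (0.38, adjusted p = 0.00534). Both meiotic copper genes were near the floor of the data. The copper transporter gene of the forming spore, mfc1, had 47, 47 and 35 counts in the deletion against 12, 6 and 3 in wild type (log2 fold change 1.88), and the meiotic factor gene cuf2 had 8, 5 and 7 counts in the deletion against 9, 19 and 14 in wild type (log2 fold change -1.78).

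Among the 9 tested zinc and cadmium genes 8 rose and 1 fell, where 40.9% of all tested genes were called higher and 37.4% lower. The 8 include gcd1, which encodes a glucose dehydrogenase and not a metal-handling protein. Whether Loz1 had a part in any of these changes, which go both ways, was not tested. The gene that fell was adh4, an alcohol dehydrogenase gene. It was at 45.4 ± 0.785 CPM in the deletion and 200.1 ± 8.20 CPM in wild type (SD, n = 3 each). The difference was -2.14 on the log2 scale, with an SE of 0.04 (edgeR adjusted p = 1.62e-14). Both Golgi zinc transporter genes rose by small amounts, zrg17 with a log2 fold change of 0.43 and its partner cis4 with 0.13, and so did zip3 (0.24), the gene of a predicted ZIP zinc transporter of the endoplasmic reticulum. The gene of the phytochelatin synthetase, pcs2 (0.32), rose with those of the vacuolar phytochelatin transporter hmt1 (0.11) and the sulfide-quinone oxidoreductase hmt2 (0.19), both of which act in cadmium tolerance. These changes of 0.11 to 0.32 on the log2 scale stand beside 1.91 for the metallothionein gene zym1, and the difference was not tested. The call of hmt1 was lost with DESeq2 (adjusted p = 0.0902) and without wild type replicate 2 (adjusted p = 0.0536). The alcohol dehydrogenase gene adh1 (0.59) and gcd1 (2.55) made up the rest. The gene SPBC1348.06c had 1 count in all 6 libraries and was not tested. In the authors' deposited table the adjusted p was 0.0604 for cox17, 0.0892 for cox1101, 0.1 for cis4 and 0.057 for hmt2, so these small rises were not called there.

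**Figure D5:**
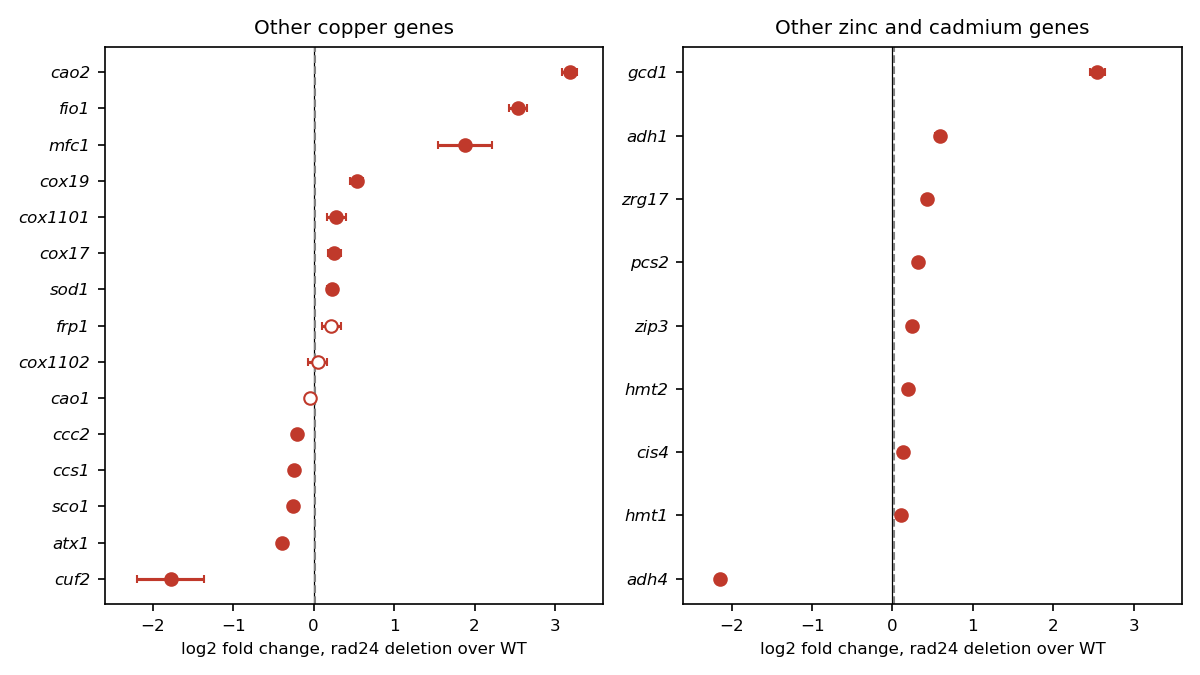
Log2 fold change (horizontal axis, rad24 deletion over wild type, with SE) of the 15 other copper genes (left) and 9 other zinc and cadmium genes (right), filled where the edgeR adjusted p was below 0.05 and open where not, with the median of all tested genes dashed. Most points lie near 0, and cao2 (3.18), fio1 (2.54) and gcd1 (2.55) stand far to the right and adh4 (-2.14) far to the left.

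The genes whose levels over the 6 libraries were most like those of a member were sought among 4984 protein-coding genes, by the Euclidean distance of centred log2 CPM. Nearest to ctr4 were the predicted nucleotide-sugar dehydratase gene tgd1 (distance 0.22), new12 (0.27) and the predicted proline dehydrogenase gene put1 (0.28). Nearest to zym1 were the meiotic recombination gene rec25 (0.12), SPAC27D7.11c (0.16) and SPBP4H10.12 (0.19). The 6 libraries fall into 2 genotypes, so genes with a similar difference between the genotypes come near each other by construction.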

How the data were processed

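The submitters' processing notes name the build ASM294v2 and the tools HTSeq 0.10.0, HISAT2 2.1.0, DESeq2 and SAMtools, and per the labels' protocols the libraries were stranded and read in pairs. The authors deposited raw counts per gene. Their table of the comparison, per the file headers, holds log2 fold changes with SEs, p-values, adjusted p-values, a test score and a mean normalized signal. The last 2 were not used.

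The members and gene lists were chosen with earlier results of these data known. Samples were grouped by their titles. Of 6987 rows, 1 repeated identifier without counts was dropped, and 902 genes under edgeR's filterByExpr minimum were left out (359 of them had no count), leaving 6084. Genotype was the only term in edgeR 4.0.16 (R 4.3.3, limma 3.58.1), with TMM factors and Benjamini-Hochberg adjustment at 0.05. Each SE is the absolute log2 fold change over the square root of F. Log2 CPM used a prior count of 2 and ratios an offset of 0.5 counts. The steps were run on simulated counts with the same spread setting for every gene. Real spreads differ between genes, so that run checks the steps and not the calls made here. Chi-square values per degree of freedom between libraries of a genotype were 2.44 to 7.94, above sampling noise, so all 6 were kept. Named genes were the members and fixed lists, of which 3 names (cox23, adh1-antisense-1 and vel1) matched no row and cox11 matched a pair of rows. Transcript lengths and overlaps come from the ASM294v3 annotation, another build than the authors', so no coordinates or sequences are given.

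Alternatives were no filter, a filter of 50 counts, scaling by library size only, by RLE or by upper quartile factors, DESeq2 1.42.0, limma-voom, the replicate number as a block, protein-coding genes only, and each library left out.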

Additional observations from a re-analysis of the deposited data

How the results depend on the processing

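All 9 members kept their direction and their call in the 15 alternatives run, where 3 were called higher and 6 lower each time. The largest adjusted p among them was 0.0155, for cuf1 with library size only. There the median of all genes moved to 0.18 and the share of higher calls to 67.0%, against 0.02 and 52.3% with TMM. The fitted log2 fold changes there were -0.15 for cuf1, -0.21 for zhf1 and 0.45 for loz1, each over 1.5 times away from its TMM value of -0.31, -0.38 and 0.29. Less that median they were -0.33, -0.40 and 0.27. Leaving out a library moved ctr4 between -1.23 and -0.99 and zym1 between 1.83 and 1.95. The numbers of members called were the same without each library. Among other genes, the direction of cao1 turned with upper quartile factors (0.044) and library size only (0.11), and that of cox1102 without wild type replicate 1 (-0.026) and without deletion replicate 3 (-0.011), and the cause was not tested. Libraries with the same replicate number shared little of their deviations (correlations -0.0014, -0.0029 and 0.050), which cannot show whether samples were handled in pairs. With the replicate block 3 members were still called higher and 6 lower, 15 and 6 of the other pathway genes, and 2487 and 2266 of all genes. The search for promoter motifs was not run, because no genome of the authors' build was used here. Low counts limit cuf2 and mfc1, and 3 libraries a genotype cannot give an exact permutation p below 0.1.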
